A study of Papio papio with 23 samples.

Results

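The CD1 family of lipid antigen-presenting molecules was examined in the blood of irradiated baboons. Its members CD1A, CD1B, CD1C, CD1D and CD1E were taken by gene name from the annotation of the arrays, which gave 5 of 36337 gene names, each with 1 probe. The family was chosen by the measured levels themselves, since CD1A was among the largest rises in blood of H2-3 baboons on day 1 against H0. That comparison is therefore described without a test for every member, and for CD1A so is each further comparison that uses any of its arrays. CD1A, CD1B and CD1C passed the filter for signal above background and were measured in the fit over 21130 genes. CD1D and CD1E did not pass it.

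Peripheral whole blood of adult male Papio papio was hybridised to 23 human Agilent arrays, 1 array per blood sample. HARS, the haematological acute radiation syndrome, is a depletion of blood cells after irradiation, and the categories H2-3 and H1-2 name the severity each animal later developed, H2-3 being the more severe. The groups were H2-3 on day 1 and on day 2 (5 baboons each day), H1-2 on day 1 and on day 2 (4 baboons each day), and H0, 5 baboons sampled before irradiation. The irradiated animals received gamma rays from a cobalt source to all or part of the body, at an equivalent whole body dose of 2.5 or 5 Gy. The dose is labelled for the study and not per animal, so each category may mix doses and fields. The mean age was 8.1 ± 3.3 years over the study's animals. Baboon numbers within a category are the same on both days, whereas the sources used here do not give whether the H0 animals are among those later irradiated.

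CD1 proteins are relatives of the MHC class I molecules that pair with beta-2 microglobulin and hold lipids, rather than peptides, for recognition by T cells. CD1A, CD1B and CD1C present lipids of bacteria and of the host to diverse T cells and are known from dendritic cells, Langerhans cells of the skin and cortical thymocytes. CD1C is also found on a subset of blood dendritic cells and on B cells. CD1D presents lipids to natural killer T cells, and CD1E remains within the cell, where it helps to load lipids onto the other members.

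The probes are shown because every value below rests on a single 60-base human sequence per gene. In the files' coordinates on human build hg19, all 5 lie on chromosome 1. The probe of CD1A spans 158227237 to 158227296, that of CD1C 158264458 to 158264517, that of CD1D 158156120 to 158156179 and that of CD1E 158326305 to 158326364. For CD1B the files list 158297740 to 158297780 on the minus strand, a span of 41 bases for a probe of 60. Exon and UTR annotation was not used here. The CD1A and CD1E probes are given whole, with their longest common run in capitals, and the others by their first 30 bases.
CD1A: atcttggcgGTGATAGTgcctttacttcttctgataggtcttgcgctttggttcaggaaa
CD1E: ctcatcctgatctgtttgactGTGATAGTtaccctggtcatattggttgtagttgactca
CD1B: tctcccattcgcaataagctaccaagaagc
CD1C: caacaacctggcattcttgcaactactgat
CD1D: ccttttggaaatgcctctgcatgaatttat
The run of 8 bases in the CD1A and CD1E probes is the longest that any 2 of the 5 whole probes share on the same strand. The G and C content was 45% for CD1A, 40% for CD1B, 35% for CD1C, 35% for CD1D and 41.7% for CD1E. How far baboon transcripts differ from these human sequences was not tested, so no probe's level is set against that of another.

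A level is the log2 signal relative to the 75th percentile of its array, and a change is the log2 difference of 2 group means ± standard error from limma. On single arrays 41.4 to 51.3% of all probes were well above background, as the scanner software calls it. The arrays lay on 7 slides read on 3 scan days. All day 1 arrays and H0 baboons 3, 4 and 5 were read on scan day 1, all day 2 arrays on scan day 2, and H0 baboons 1 and 2 on scan day 3. Day 2 therefore cannot be told apart from its slides and scan day in any comparison with H0 or with day 1. In whole blood, fewer cells of a type and less RNA per cell cannot be told apart either. Nothing in the labels says more about the independence of the samples than the baboon numbers, so p-values measure the spread between these samples. The main fit counts the day 1 and day 2 arrays of an animal as separate samples, although limma's correlation within a baboon was 0.252.

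CD1A, the member carried by Langerhans cells and monocyte-derived dendritic cells, was higher in every group of irradiated baboons than in H0 by its mean. Its levels were 2.27, 1.62, 1.92, 2.56 and 2.39 in H2-3 baboons 1 to 5 on day 1 and 1.15, 1.41, 0.14, 1.74 and 0.74 in the same animals on day 2. In H1-2 baboons 1 to 4 the levels were 0.09, -0.26, -0.33 and 0.99 on day 1 and 1.31, 0.58, 0.69 and -0.28 on day 2. In H0 baboons 1 to 5 they were -0.81, -0.23, -1.28, -3.32 and -3.54. All 5 arrays of H2-3 lay above all 5 of H0 on each day, whereas 2 of 4 H1-2 arrays on day 1 and 3 of 4 on day 2 did. The spot was well above background on 21 arrays of 23. The exceptions were H0 baboons 4 and 5, the lowest values of the set.

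The group means of CD1A were 2.15 ± 0.38 (SD, n = 5) in H2-3 on day 1, 1.04 ± 0.62 (SD, n = 5) in H2-3 on day 2, 0.12 ± 0.61 (SD, n = 4) in H1-2 on day 1, 0.58 ± 0.66 (SD, n = 4) in H1-2 on day 2 and -1.84 ± 1.50 (SD, n = 5) in H0. In that order of levels, H2-3 day 1 stood highest and H0 lowest. The groups between them, H2-3 day 2, H1-2 day 2 and H1-2 day 1, had ranges that overlapped with their neighbours. H0 had the widest spread of the 5 groups for this probe.

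**Figure D1:**
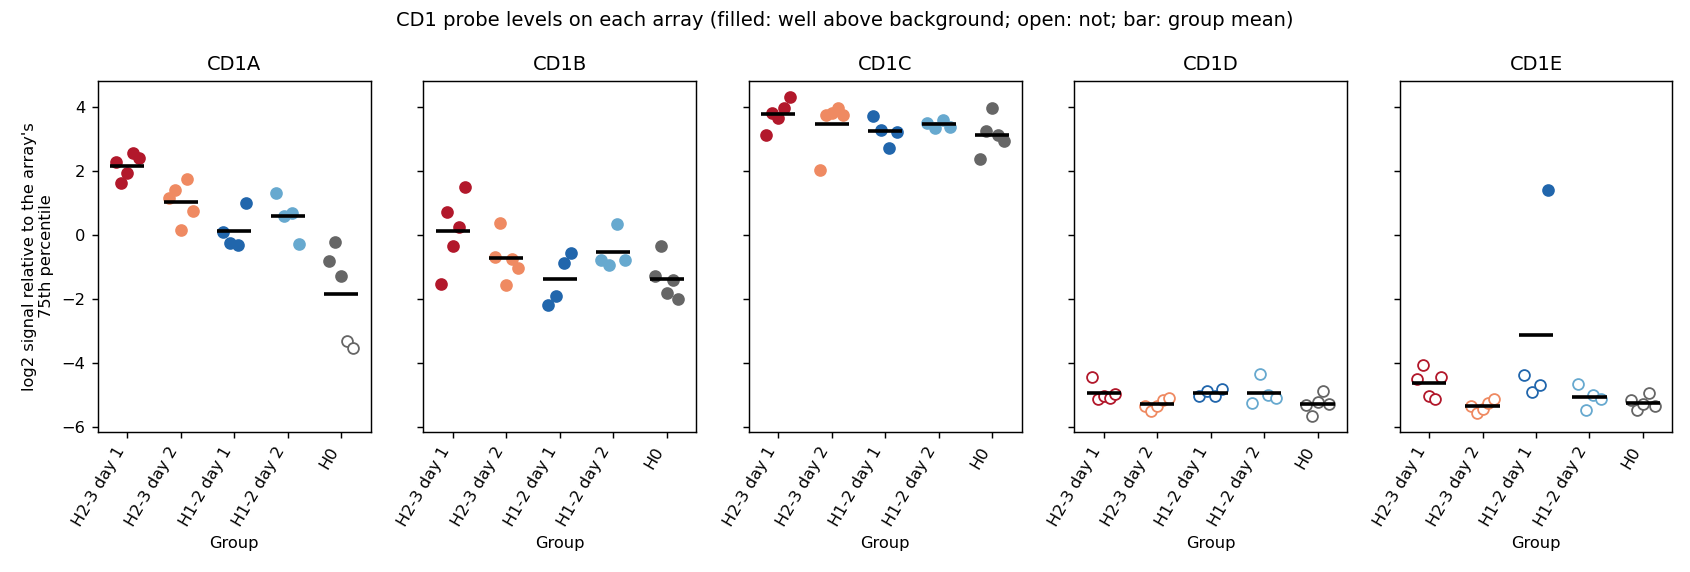
Levels of the 5 CD1 probes on each of the 23 arrays (log2 signal relative to the array's 75th percentile), by group. Filled points were well above background, open points were not, and bars are group means. The CD1A levels of both H2-3 groups lie above all H0 levels, and no CD1D point is filled.

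In the comparison that chose the family, H2-3 on day 1 against H0, CD1A differed by 3.99 ± 0.51, or 15.9-fold, the number 3 rise of 21130 genes. With the dim H0 arrays set at the lowest measurable signal, the ratio was 14.3-fold. CD1A was also higher in H2-3 on day 2 (2.87 ± 0.51, 7.32-fold), in H1-2 on day 1 (1.96 ± 0.54, 3.89-fold) and in H1-2 on day 2 (2.41 ± 0.54, 5.33-fold). Its places among the rises of these comparisons were 24, 70 and 13, and with the dim arrays at the lowest measurable signal the ratios were 6.60-fold, 3.51-fold and 4.80-fold. All 4 comparisons use the same 5 H0 arrays. The dim H0 arrays came from scan day 1, and against the 3 H0 arrays of that scan day alone the difference was 4.86 in H2-3 and 2.83 in H1-2 on day 1, or 4.62 and 2.59 with the dim arrays at the lowest measurable signal. On the only slide that holds both groups, H2-3 baboon 1 on day 1 exceeded H0 baboon 5, a dim array, by 5.81, or by 5.51 with that array at its lowest measurable signal. With the alternative background correction (normexp), the differences from H0 were smaller, at 2.50 and 1.57 in H2-3 on days 1 and 2 and at 0.89 and 1.26 in H1-2 on days 1 and 2.

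Between the categories on day 1, CD1A was 2.03 ± 0.54 higher in H2-3 than in H1-2, or 4.08-fold, and all 5 H2-3 arrays lay above all 4 H1-2 arrays. On the 2 slides that hold both categories the difference was 1.85 and 2.14. On day 2, a comparison that shares no array with the one that chose the family, the difference was 0.46 ± 0.54 (95% interval -0.66 to 1.58; limma adjusted p = 0.791). Within its 2 slides it was -0.05 and 1.03, and the categories overlapped. No gene passed the threshold between the categories on either day (0% of genes called by limma at an adjusted p of 0.05 on day 1 and 0% on day 2; 1224 and 2062 genes had an unadjusted p under 0.05).

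From animal to animal, CD1A was lower on day 2 than on day 1 in 5 of 5 H2-3 baboons. The difference of the group means was -1.12 ± 0.51. Its standard error, like those and the p-values of the other day differences, comes from the main fit, which does not pair the animals. The animals' own differences were -1.12, -0.21, -1.77, -0.82 and -1.65 in baboons 1 to 5. In H1-2 it was higher on day 2 in baboons 1, 2 and 3, by 1.22, 0.85 and 1.02, and lower in baboon 4, by -1.27. The mean difference in H1-2 was 0.45 ± 0.57 (95% interval -0.73 to 1.64; limma adjusted p = 0.626). The day difference in H2-3 minus that in H1-2 was -1.57 ± 0.76, given as a description. The category means were thus 2.03 apart on day 1 and 0.46 apart on day 2.

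**Figure D2:**
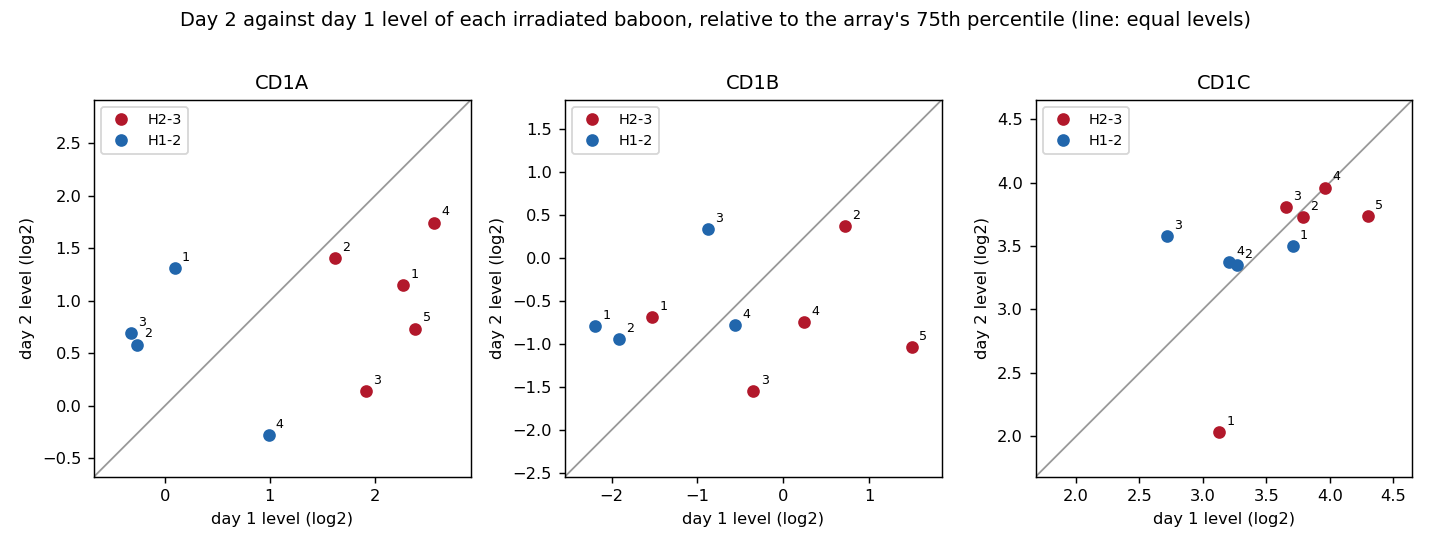
Day 2 level (vertical axis) against day 1 level (horizontal axis) of each irradiated baboon for CD1A, CD1B and CD1C, in log2 units relative to the array's 75th percentile. Numbers are baboons within a category and the line marks equal levels. For CD1A all 5 H2-3 baboons lie below the line and 3 of 4 H1-2 baboons lie above it.

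CD1B, the member with the largest lipid-binding groove, was well above background on all 23 arrays. Its levels were -1.52, 0.72, -0.35, 0.24 and 1.49 in H2-3 baboons 1 to 5 on day 1 and -0.69, 0.37, -1.55, -0.75 and -1.04 on day 2. In H1-2 baboons 1 to 4 they were -2.19, -1.91, -0.88 and -0.56 on day 1 and -0.79, -0.94, 0.34 and -0.78 on day 2. In H0 baboons they were -1.30, -0.34, -1.83, -1.40 and -2.01. H2-3 on day 1 had the widest spread, and its baboon 1 lay within the range of H0.

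The mean of CD1B was 0.12 ± 1.14 (SD, n = 5) in H2-3 on day 1, against -1.38 ± 0.65 (SD, n = 5) in H0. The difference was 1.49 ± 0.48, or 2.81-fold, with 3 of 5 arrays above all H0 arrays, and is a description. It was 1.87 against the H0 arrays of scan day 1 and 0.49 on the shared slide, where the H2-3 array is that of baboon 1. With every slide as a block the difference was the same 0.49, because no other slide holds both H0 and irradiated arrays. It rests on the same pair of arrays and adds no further value.

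Between the categories on day 1, CD1B was 1.50 ± 0.51 higher in H2-3 than in H1-2, or 2.84-fold (95% interval 0.46 to 2.55; limma adjusted p = 0.445). In 4 of 5 H2-3 baboons the level lay above all 4 H1-2 arrays. Within the shared slides the difference was 2.24 and 1.59. It did not pass the threshold after adjustment, as held for every gene tested there.

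In the other comparisons CD1B did not pass the threshold. Against H0 it differed by 0.64 ± 0.48 in H2-3 on day 2 (adjusted p = 0.336, limma), by -0.01 ± 0.51 in H1-2 on day 1 (adjusted p = 0.992, limma) and by 0.83 ± 0.51 in H1-2 on day 2 (adjusted p = 0.552, limma). Between H2-3 and H1-2 on day 2 the difference was -0.19 ± 0.51 (adjusted p = 0.925, limma). CD1B differed between day 2 and day 1 by -0.85 ± 0.48 in H2-3, lower in 4 of 5 baboons (adjusted p = 0.262, limma). In H1-2 the same difference was 0.84 ± 0.53, higher in 3 of 4 baboons (adjusted p = 0.318, limma). The day difference in H2-3 minus that in H1-2 was -1.69 ± 0.71 (limma adjusted p = 1), and 0% of genes passed (421 with an unadjusted p under 0.05).

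CD1C, which marks a subset of blood dendritic cells, was well above background on all 23 arrays. Its levels were 3.13, 3.79, 3.65, 3.96 and 4.30 in H2-3 baboons 1 to 5 on day 1 and 2.03, 3.73, 3.81, 3.96 and 3.74 on day 2. In H1-2 baboons 1 to 4 they were 3.71, 3.27, 2.72 and 3.20 on day 1 and 3.50, 3.35, 3.58 and 3.37 on day 2. In H0 they were 2.35, 3.23, 3.94, 3.11 and 2.92. The groups overlapped in every pairing with H0, and the H2-3 day 2 array of baboon 1 had the lowest level of all 23.

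The mean of CD1C was 3.77 ± 0.43 (SD, n = 5) in H2-3 on day 1 against 3.11 ± 0.57 (SD, n = 5) in H0, a described difference of 0.66 ± 0.33, or 1.58-fold. Against H0 it differed by 0.34 ± 0.33 in H2-3 on day 2 (95% interval -0.33 to 1.02, adjusted p = 0.461, limma), by 0.11 ± 0.34 in H1-2 on day 1 (adjusted p = 0.867, limma) and by 0.34 ± 0.34 in H1-2 on day 2 (adjusted p = 0.723, limma). The category difference, H2-3 minus H1-2, was 0.54 ± 0.34 on day 1 (adjusted p = 1, limma) and 0.00 ± 0.34 on day 2 (adjusted p = 0.998, limma). The day difference was -0.31 ± 0.33 in H2-3 (adjusted p = 0.578, limma) and 0.22 ± 0.36 in H1-2 (adjusted p = 0.714, limma). The intervals were too wide to show that CD1C stayed level.

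**Figure D3:**
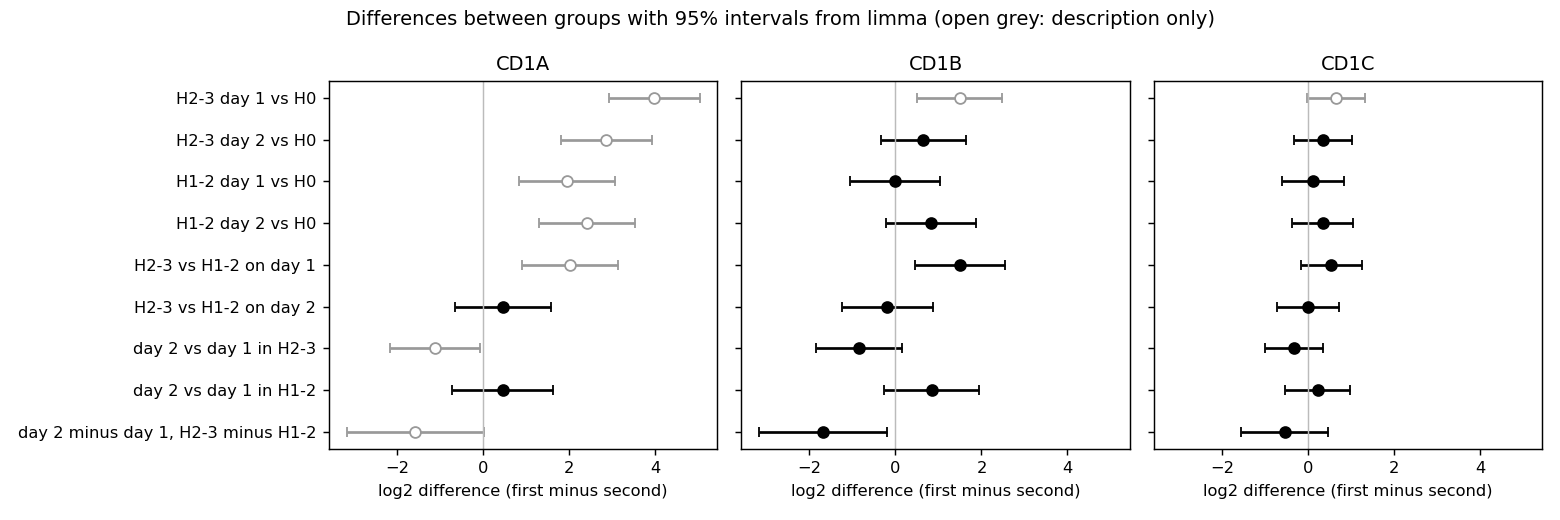
Differences between groups for CD1A, CD1B and CD1C, in log2 units, first group minus second, with 95% intervals from limma. Open grey points are descriptions: H2-3 on day 1 against H0 for each gene, and for CD1A every comparison that uses any of its arrays. The CD1A differences from H0 lie between 1.96 and 3.99, while the CD1B and CD1C intervals read as tests cross 0 except for CD1B between H2-3 and H1-2 on day 1 and in its day difference between categories.

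CD1D, which presents lipids to natural killer T cells, was not well above background on any of the 23 arrays. Its signal ranged between -5.64 and -4.34 and gives only a bound. CD1E was well above background on 1 of 23 arrays, H1-2 baboon 4 on day 1, at a level of 1.41, with -5.55 to -4.06 on the other 22. The same animal was at -5.11 on day 2. No difference between groups is given for either probe.

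In H2-3 on day 1 against H0, 28.4% of all genes were called (15% higher, 13.5% lower), and no member is read as called or not called there. Of CD1B and CD1C, the members read as tests against H0, 0 were called in H2-3 on day 2, where 14.8% of all genes were (10.3% higher, 4.48% lower), and 0 in H1-2 on day 1, where 8.59% were (4.18% higher, 4.42% lower). With the percentile taken over probes detected on all arrays, 2051 genes were higher and 3836 lower in H2-3 on day 1, 1567 and 2030 in H2-3 on day 2, and 751 and 1569 in H1-2 on day 1, against 3161 and 2846, 2176 and 947, and 883 and 933 with the main scaling. In H1-2 on day 2, 0% of genes were called by limma (2228 with an unadjusted p under 0.05). Between days, 2.97% of genes were called in H2-3 and 0% in H1-2 (4957 with an unadjusted p under 0.05), and 0 of the members read as tests. With the baboon as a random block, 3406 genes were called between days in H2-3 and 902 in H1-2, and 0 members in each. With the baboon as a fixed effect the counts were 1398 and 4, again with 0 members.

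Over the 23 arrays CD1A and CD1B correlated at r = 0.611 (Spearman's rho 0.633), and at 0.367 after the group means were subtracted. CD1A and CD1C correlated at r = 0.389 (rho 0.502), and at 0.064 without the group means. CD1B and CD1C correlated at r = 0.361 (rho 0.311), and at 0.13 without the group means. These are descriptions over arrays that share groups, slides and animals.

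Among the genes whose levels most resembled CD1A over the 23 arrays were CARD9, an adaptor that signals for C-type lectin receptors, METRNL, which encodes a secreted protein, HIST2H2BA and GNGT2, a G protein gamma subunit. Their correlations with CD1A were 0.864 for CARD9, 0.862 for METRNL, 0.861 for HIST2H2BA and 0.854 for GNGT2. After the group means were subtracted they were 0.558, 0.636, 0.63 and 0.429 in the same order of genes. CARD9 averaged 4.80 in H2-3 on day 1, 4.42 in H2-3 on day 2, 3.99 in H1-2 on day 1, 3.99 in H1-2 on day 2 and 3.22 in H0. On 4 of 23 arrays HIST2H2BA was not well above background. By the same measure CD1B stood at place 1084 and CD1C at place 3639 of 14623 genes with a symbol.

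Genes that load lipids onto CD1 molecules and move them through the cell were higher in part. For this list and those below, 10.3% of all genes rose and 4.48% fell in H2-3 on day 2 against H0. In H1-2 on day 1 against H0, 4.18% of all genes rose and 4.42% fell. Of 26 such genes 25 were tested, and in H2-3 on day 2 against H0 9 rose and 0 fell, with a median change of 0.55 against -0.03 over all genes. PSAP, the precursor of the saposins that lift lipids out of lysosomal membranes, was 1.18 ± 0.27 higher (adjusted p = 0.0112, limma) and above all H0 arrays on 5 of 5 arrays. NPC2, a lysosomal sterol carrier, was 1.15 ± 0.30 higher (adjusted p = 0.0172, limma), and GLA, a galactosidase of lysosomal glycolipids, 1.08 ± 0.26 higher (adjusted p = 0.0136, limma). B2M, the light chain of every CD1 protein on the cell surface, named after its value was seen, differed by 0.71 (adjusted p = 0.0544, limma). MTTP, which loads lipids in the endoplasmic reticulum, was at background on all arrays. On day 1 in H1-2, 3 of the 25 rose and 0 fell (median 0.41 against 0.09 over all genes). The count rising was 5 with normexp and 2 under quantile normalization or with the deposited table. GLA was among the 3, at 1.11 ± 0.28 (adjusted p = 0.0221, limma).

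Among other MHC class I-like molecules 3 of 5 were tested. MR1, which presents vitamin B metabolites to mucosal-associated invariant T cells, was 1.50 ± 0.36 higher in H2-3 on day 2 than in H0 (adjusted p = 0.0129, limma), on 5 of 5 arrays above all H0 arrays. Its other probe gave 1.75. FCGRT, the neonatal Fc receptor, was 1.12 ± 0.27 higher (adjusted p = 0.0136, limma), and AZGP1, a secreted relative, differed by -0.28 ± 0.20 (adjusted p = 0.326, limma). MR1 was likewise higher in H1-2 on day 1, by 1.47 ± 0.38 (adjusted p = 0.0256, limma), and so was FCGRT, by 1.30 ± 0.29 (adjusted p = 0.0155, limma). HFE and PROCR were at background on all arrays.

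Of 9 transcription factors known to act on CD1 genes 8 were tested, and 3 rose and 0 fell in H2-3 on day 2, with a median change of 0.69. SPI1, which encodes the myeloid factor PU.1, was 1.40 ± 0.31 higher (adjusted p = 0.00989, limma). The retinoid receptor genes RXRA and RARA were higher by 1.02 ± 0.26 (adjusted p = 0.0165, limma) and 1.03 ± 0.33 (adjusted p = 0.0426, limma), although the other RARA probe gave 0.15. Of the same genes 2 rose and 0 fell in H1-2 on day 1, against 1 that rose under quantile normalization or with the deposited table. The 2 were SPI1, higher by 1.57 ± 0.33 (adjusted p = 0.0145, limma), and RXRA, higher by 1.08 ± 0.28 (adjusted p = 0.0249, limma). LEF1, another of the 8, named after its value was seen, went the other way without passing the threshold. It differed from H0 by -1.23 in H2-3 on day 2 and by -1.62 in H1-2 on day 1. PPARG, a lipid-sensing receptor that represses CD1A and induces CD1D in human dendritic cells, was at background on all arrays.

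Markers of the cells that can carry CD1 molecules moved beside these genes, and their part in the CD1 values was not tested. Of 12 monocyte markers 11 were tested, and in H2-3 on day 2 7 rose and 0 fell (median 1.22), among them CD68 at 1.57 ± 0.32, LILRB2 at 1.71 ± 0.35 and FCN1 at 1.39 ± 0.29 (adjusted p = 0.00843 for CD68 and 0.00859 for each of the others, limma). Of these markers 5 rose and 0 fell in H1-2 on day 1 (median 0.97), and 2 rose under quantile normalization or with the deposited table. LILRB2 was among the 5, at 1.30 ± 0.37 (adjusted p = 0.0347, limma). The mean level of the monocyte markers ranged between 6.47 and 6.92 in H2-3 on day 1, between 6.23 and 6.69 in H2-3 on day 2, between 5.60 and 6.67 in H1-2 on day 1, between 5.22 and 6.51 in H1-2 on day 2 and between 4.78 and 5.67 in H0. Both H2-3 groups lay above all H0 arrays in this list. The same held for the mean levels of the CD1 loading and trafficking list and of the list of monocyte-derived dendritic cell genes, by narrow margins on day 2. The lowest H2-3 array on day 2 was at 3.47 against 3.38 for the highest H0 array in the former. In the latter these were -1.48 and -1.52. The share of all genes that separate from H0 in this way is not given here. Neutrophil markers were higher too, with 6 of 7 rising in H2-3 on day 2 and 6 in H1-2 on day 1, where 10.3% and 4.18% of all genes rose. Under quantile normalization or with the deposited table, 5 and 4 of the 7 rose. CSF3R, the G-CSF receptor, was higher by 1.43 ± 0.30 in H2-3 on day 2 and by 1.32 ± 0.32 in H1-2 on day 1.

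Of 14 conventional dendritic cell markers 12 were tested, and 2 rose and 0 fell in H2-3 on day 2 (median 0.25), where 10.3% of all genes rose. Under quantile normalization, with the deposited table, or scaled on probes well above background on every array, 1 of the 12 rose, and under the last scaling the median was 0.09. The 2 of the main scaling were NDRG2 at 1.36 ± 0.28 (adjusted p = 0.00859, limma) and IDO1, a tryptophan-degrading enzyme that interferon induces, at 1.45 ± 0.48 (adjusted p = 0.0469, limma). FCER1A and CLEC10A, which with CD1C define a subset of blood dendritic cells and were named after their values were seen, differed by 0.18 (adjusted p = 0.833, limma) and -0.09 (adjusted p = 0.823, limma). CLEC9A was at background on all arrays. Of the 12, 0 passed in H1-2 on day 1, and 1 did with normexp. The mean level of the list ranged between 0.64 and 1.16 in H2-3 on day 1, between 0.50 and 1.10 in H2-3 on day 2, between 0.26 and 0.95 in H1-2 on day 1, between 0.17 and 0.92 in H1-2 on day 2 and between -0.37 and 0.96 in H0, so that every group overlapped with H0.

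Of 13 genes of monocyte-derived dendritic cells 8 were tested, and in H2-3 on day 2 4 rose and 1 fell (median 1.18), against 1 and 1 with the alternative background correction (median 0.24). MRC1, the mannose receptor, was 1.60 ± 0.39 higher (adjusted p = 0.0137, limma), with 1 of 5 H0 arrays well above background. CCL17, a chemokine for T cells, was 1.48 ± 0.36 higher (adjusted p = 0.0138, limma). ALOX15, a lipoxygenase that eosinophils also make, fell by 2.01 ± 0.34 on the log2 scale (adjusted p = 0.00507, limma), with -1.22 for its other probe. CCL17 alone of the 8 passed in H1-2 on day 1, at 1.43 ± 0.38 (adjusted p = 0.028, limma), and 0 of the 8 did with normexp. CCL13, CCL18, FABP4, PPARG and TGM2 were at background on all arrays. The mean level of the list ranged between -1.42 and -0.95 in H2-3 on day 1, between -1.48 and -1.0 in H2-3 on day 2, between -1.65 and -0.87 in H1-2 on day 1, between -1.92 and -1.17 in H1-2 on day 2 and between -2.06 and -1.52 in H0.

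Of 9 plasmacytoid dendritic cell markers 7 were tested. In H2-3 on day 2 LILRA4 was 1.62 ± 0.36 higher (adjusted p = 0.00913, limma), NRP1 1.58 ± 0.46 higher (adjusted p = 0.0284, limma) and TCF4, a factor that B cells also use, fell by 1.60 ± 0.34 on the log2 scale (adjusted p = 0.00866, limma). CLEC4C and IL3RA, which define these cells in human blood, were at background on all arrays. The list's median was 0.04, and its sign turned under 2 of the 4 other scalings (-0.11 with the percentile taken over probes detected on all arrays, -0.08 with normexp). In H1-2 on day 1, LILRA4 alone passed, at 1.54 ± 0.38 (adjusted p = 0.0208, limma).

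Langerhans cells and cortical thymocytes are other cells known to carry CD1A. The Langerhans cell markers CD207 and EPCAM were at background on all arrays and CDH1 was well above it on 3, so 0 of 3 were tested. Among cortical thymocyte markers RAG2, DNTT and ARPP21 were at background on all arrays and RAG1 was above it on 3. PTCRA, the pre-T cell receptor alpha chain, was tested and differed by 1.23 ± 0.54 in H2-3 on day 2 (adjusted p = 0.11, limma).

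On the side of the T cells that recognise CD1, natural killer T cells and other innate-like T cells, 8 of 8 genes were tested. In H2-3 on day 2 4 fell and 0 rose against H0 (median -0.87), and in H1-2 on day 1 likewise 4 fell and 0 rose (median -1.02). Of all genes, 4.48% and 4.42% fell in these comparisons. With the alternative background correction the medians were -0.30 and -0.37. SH2D1A, a signalling adaptor needed by natural killer T cells, fell by 1.45 ± 0.37 on the log2 scale in H2-3 on day 2 (adjusted p = 0.0161, limma) and by 1.81 ± 0.39 in H1-2 on day 1 (adjusted p = 0.0148, limma). Its other probes gave -1.45 and 0.26 in H2-3 on day 2. SLAMF6, a receptor that signals through it, fell by 1.53 ± 0.43 in H2-3 on day 2 (adjusted p = 0.0239, limma) and by 1.49 ± 0.45 in H1-2 on day 1 (adjusted p = 0.0447, limma). The chemokine receptor CXCR6 fell by 1.72 ± 0.47 in H2-3 on day 2 (adjusted p = 0.0223, limma), with 1 of 5 arrays well above background against 4 of 5 in H0. The rest of the list, named after its values were seen, did not move as one. In H2-3 on day 2 KLRB1 differed by -2.09, ZBTB16 by -0.29, SLAMF1 by -0.02, EGR2 by 0.25 and CCR6 by 0.45. In H1-2 on day 1 the same genes differed by -2.31, -0.50, -0.55, -0.03 and 0.20.

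T cell markers at large moved beside that list, with 2 of 10 falling and 0 rising in H2-3 on day 2 (median -0.71) and 4 falling and 0 rising in H1-2 on day 1 (median -1.38). The share of all genes that fell was 4.48% and 4.42% there. The count falling in H2-3 on day 2 was 1 with normexp, and in H1-2 on day 1 it was 7 with normexp, quantile normalization or the deposited table. CD3G, part of the CD3 complex, fell on the log2 scale by 1.49 ± 0.39 in H2-3 on day 2 (adjusted p = 0.0186, limma) and by 2.11 ± 0.42 in H1-2 on day 1 (adjusted p = 0.0141, limma). B cell markers, of which 12 of 14 were tested, fell in 11 cases in H2-3 on day 2 (median -2.17, and -1.28 with normexp), TNFRSF13C, a receptor for the survival factor BAFF, by 1.99 ± 0.42 on the log2 scale (adjusted p = 0.00866, limma), and in 0 cases in H1-2 on day 1. Their mean level ranged between -1.06 and 0.01 in H2-3 on day 2 against 1.29 and 2.08 in H0, without overlap. The share of all genes without overlap there is not given here. In H1-2 on day 2 no gene of any list passed against H0, where 0% of all 21130 genes tested did, so this is no result about the lists.

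**Figure D4:**
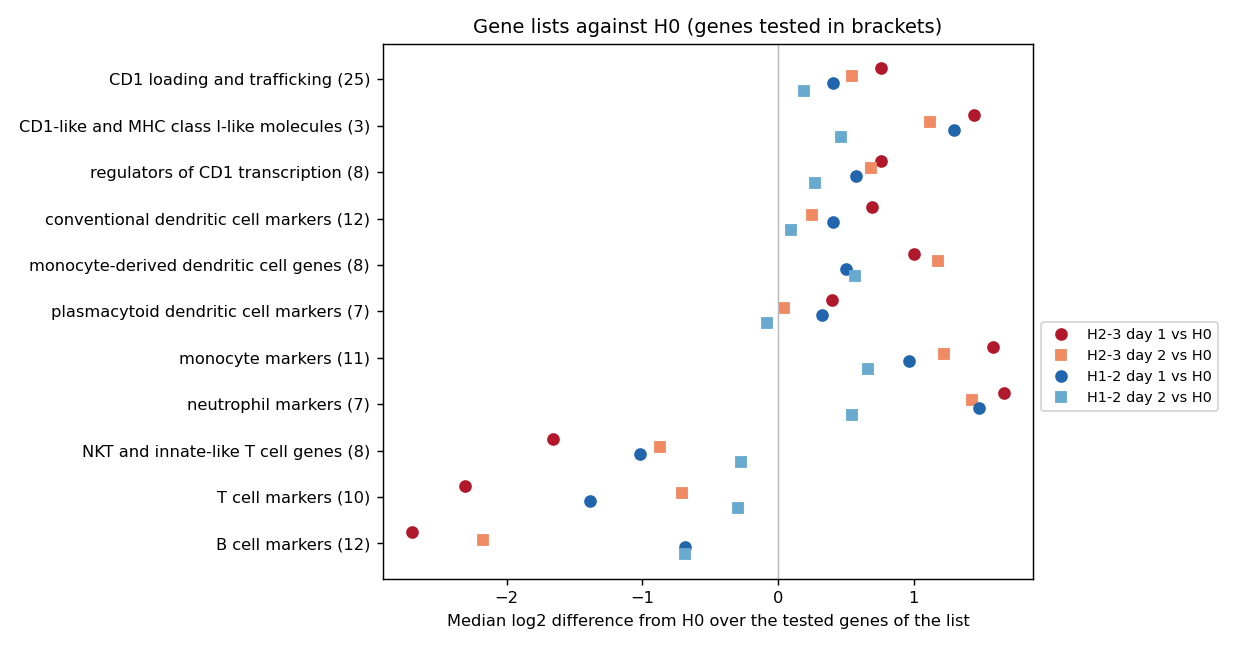
Median change from H0 (log2) over the tested genes of each list, for H2-3 and H1-2 on days 1 and 2. Circles are day 1 and squares day 2. All 4 comparisons share the H0 arrays. The medians of the loading, monocyte and neutrophil lists lie above 0 and those of the T cell, B cell and natural killer T cell lists below 0 in each comparison.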

How the data were processed

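Per the labels' protocols, each tube held 2.5 ml of blood, and 100 ng of its total RNA was labelled with Cy3. Array images were quantified with Agilent Feature Extraction 10.7.3.1, per the submitters' processing notes. The deposited scanner files give linear intensity per spot with background subtracted. A deposited table by the authors gives log2 values; its 39637 matched probes correlated with their own array at 0.9982 to 0.9999, every column median was 4.703, and 4 of the 5 CD1 probes are in it. Its centring and choice of probes are unknown, and it served as an alternative.

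From the intensities, log2 was taken, spots of a probe were averaged without outlier-flagged ones, and each array's 75th percentile, control spots aside, was subtracted. Of 50599 probes, 27215 well above background on at least 4 of 23 arrays were kept, and the brightest kept probe stood for its gene. The number of arrays limits the precision. One limma 3.58.1 fit in R 4.3.3 with 5 group means gave moderated two-sided tests with Benjamini-Hochberg adjustment over all genes at 0.05. The computation was tested on simulated data. For a fold with the lowest measurable signal, a dim array took the lowest signal called well above background on it, or the probe's own where higher.

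The members and the gene lists were chosen with earlier results of these data known. The lists are described by counts and medians. Named list genes are the 3 per list with the smallest p in H2-3 on day 2 against H0 among those past the threshold, and whole short lists. The genes most like CD1A were taken by Pearson correlation over the 23 arrays. Some genes that these rules name are not reported here. Alternatives changed the background correction (normexp with offset 50), scaling, filter, probe choice, values, slide, scan day, baboon and replicates. The titles give the same baboon number on both days, so the pairing is by animal; deviations of same-numbered arrays correlated at 0.054 to 0.437 in H2-3 and 0.057 to 0.39 in H1-2. An array correlated best with its own number in 4 of 5 H2-3 baboons and in 0 of 4 H1-2 baboons.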

Additional observations from a re-analysis of the deposited data

Results flagged for a closer look

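In 25 pairs of a CD1 probe and a group of 4 or 5 arrays, a single array stood further from the others than Dixon's 95% limit allows in 4, where chance alone flags about 1 in 20. No cause was tested.

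CD1E stood at 1.41 in H1-2 baboon 4 on day 1, with the other 3 arrays of that group between -4.91 and -4.36 (gap over range 0.912). The spot had a mean signal of 328 over a background of 29 and no outlier flag, and the deposited value table gives 8.03 there against at most 2.45 on any other array. On that array 149 probes were well above background that were so on no other array, and 4 of them, CD1E included, were at least as bright as CD1E.

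CD1C stood at 2.03 in H2-3 baboon 1 on day 2, below the other 4 arrays of its group at 3.73 to 3.96 (gap over range 0.88). The same animal had the lowest CD1C level of its group on day 1, at 3.13. CD1B stood at 0.34 in H1-2 baboon 3 on day 2, above the other 3 arrays at -0.94 to -0.78 (gap over range 0.873). CD1D stood at -4.42 in H2-3 baboon 1 on day 1, above the other 4 arrays at -5.11 to -4.95 (gap over range 0.772), with no array of the 5 well above background, so the order of these values was not measured. Before the 75th percentile was subtracted its signal was 3.79, within the 3.04 to 3.87 of the other 4. The percentile of that array, an intensity of 80.95, was the lowest of all arrays.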

How the results depend on the processing

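CD1A, CD1B and CD1C were recomputed under every alternative, leaving out each array included, which gave 531 values. Of the values for comparisons given as descriptions, 7 moved by more than the spread between replicates. Values of results read as tests were not held against that spread and were judged by the threshold instead. All 7 came from the normexp background correction or from slide as a block. CD1A against H0 was 2.50 and 1.57 in H2-3 on days 1 and 2 and 0.89 and 1.26 in H1-2 on days 1 and 2 with normexp, and 5.81 in H2-3 and 3.81 in H1-2 on day 1 with slide as a block. CD1B in H2-3 on day 1 was 0.49 with slide as a block. Among the results read as tests, CD1B in H1-2 on day 1 against H0 was -1.43 with slide as a block, in place of -0.01. With slide as a block, every comparison with H0 rests on H0 baboon 5, the only H0 array on a slide with irradiated arrays. The CD1A spot of that array was dim. Of the 18 member results read as tests, 0 of 350 alternative values passed the threshold (lowest adjusted p = 0.0613, limma). The cause of each shift was not tested. Scaling on probes well above background on every array moved the median change of all genes to -0.05 in H2-3 on day 1, -0.18 in H2-3 on day 2 and -0.03 in H1-2 on day 1, in place of 0.14, -0.03 and 0.09.

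The number of genes called in H2-3 on day 1 against H0 was 6007, and 1112 with slide as a block, which rests on H0 baboon 5. In H1-2 on day 1 against H0, 1816 genes were called, 9 with slide as a block, 4 with scan day as a block, and 4 to 3105 without single arrays, the lowest without H1-2 baboon 1 on day 1. CD1A, a description there, differed by 0.89 with normexp and by 1.53 to 2.36 without single arrays. In H2-3 on day 2 against H0, 3123 genes were called, and 829 to 4387 without single arrays, the lowest without H2-3 baboon 4. In H1-2 on day 2 against H0 the count was 0 to 6 without single arrays. Between H2-3 and H1-2 it was 0 to 14 on day 1 without single arrays, and 1 on day 2 with no filter on dim probes. Between days in H2-3, 628 genes were called, 280 with normexp, 324 when scaled on probes well above background on every array, 22 to 3734 without single arrays, and 3406 with the replicate block as a random effect or 1398 as a fixed effect. Between days in H1-2, 0 genes were called, 4 with normexp, 19 with the deposited table, 5 with no filter, 0 to 181 without single arrays, and 902 or 4 with the replicate block. The replicate block changed no other count by over 1.5 times, and with it 0 of the member results read as tests passed the threshold. Slide and scan day could not be fitted as blocks for day 2 against H0 or against day 1. Signal over background limits CD1D, CD1E and, in H0, CD1A.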
